A study of Mus musculus with 15 samples.

Results

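N-acetylaspartate metabolism was followed through 6 genes in the choroid plexus of Add1 mutant mice: the ligases Rimklb and Rimkla, the acetyltransferase Nat8l, and the hydrolases Aspa, Folh1 and Naalad2. They are the probe sets whose platform gene symbol is one of these names, 6 of the 19938 genes that could be named. Each gene had 1 probe set, so no choice between probe sets was needed. Rimklb was chosen because its level in null animals was known from earlier results of these arrays, and the other 5 because they make or break the same metabolites. The contrasts of Rimklb with null animals are therefore given as a description, without a test.

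N-acetylaspartate is an acetylated amino acid that is abundant in the brain, where neurons make it from aspartate and acetyl-CoA through Nat8l. Rimklb and Rimkla are ATP-dependent ligases that join glutamate to it to give the dipeptide N-acetylaspartylglutamate, a ligand of the metabotropic glutamate receptor Grm3; Rimklb can also join glutamate to citrate, giving beta-citrylglutamate. Folh1 and Naalad2 are peptidases of the cell surface that remove the glutamate, and Aspa, best known from oligodendrocytes, splits N-acetylaspartate into acetate and aspartate.

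The arrays came from 15 mice of strain C57BL/6J, all labelled male and 3 weeks of age, taken before hydrocephalus develops. There were 5 wild-type mice with 2 wild-type alleles of Add1, which encodes the membrane skeleton protein alpha-adducin, 5 heterozygous mice with 1 and 5 null (knockout) mice with 0. The mice were untreated as far as the labels say, and which part of Add1 was deleted is not stated there. Total RNA (250 ng per animal) of dissected choroid plexus, the tissue that secretes cerebrospinal fluid, was hybridised to 1 whole-transcript array per animal. Values are log2 signals, so a difference of 1 is a doubling of signal, and differences of dim probe sets are compressed on arrays.

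The mean signal of Add1 itself went from 7.92 ± 0.116 (wild-type) through 7.76 ± 0.0996 (heterozygous) to 7.61 ± 0.161 (null, SD, n = 5 each). The null arrays (7.41 to 7.76) lay just below the wild-type ones (7.78 to 8.04) and overlapped the heterozygous ones (7.68 to 7.92). The tissue label fits its markers: 10 of 12 epithelial markers had a probe set, and their mean level lay between 11.1 and 11.3 in every array. Null arrays 1 and 5 carried Xist signal (9.09 and 9.69, against at most 3.88 elsewhere) although labelled male. The Y-linked gene Eif2s3y read 3.19 and 3.34 there, against at least 6.92 elsewhere, and Uty and Kdm5d were low there too. These are the signals of female tissue, found only in the null group, so sex and genotype are partly confounded. In heterozygous array 1 neuron markers stood 1.51 and oligodendrocyte markers 0.92 above the wild-type mean.

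Rimklb was higher in null than in wild-type or heterozygous choroid plexus, with no overlap of the arrays. In wild-type animals its log2 signal was 5.04, 5.29, 5.24, 5.39 and 5.11 in arrays 1 to 5. In heterozygous animals it was 5.64, 5.46, 5.25, 5.29 and 5.15. In null animals it was 6.71, 6.21, 6.67, 6.29 and 6.26. The lowest null array thus stood 0.57 above the highest of the other 10, which was heterozygous array 1, and the null arrays fell into a pair near 6.7 and a trio near 6.2 to 6.3. The genotype means were 5.21 ± 0.140, 5.36 ± 0.193 and 6.43 ± 0.241 in the same order (SD, n = 5 each).

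The null mean was 2.32-fold the wild-type mean (log2 difference 1.21, SE 0.111) and 2.10-fold the heterozygous mean (1.07, SE 0.111). These comparisons share the null arrays. limma called 7.72% of the 10109 genes tested between null and wild type and 7.82% between null and heterozygous, at a Benjamini-Hochberg adjusted p under 0.05. The heterozygous mean lay 0.46 below the midpoint of the null and wild-type means. This midpoint includes the null level for which Rimklb was chosen, so the gap is given as a description only. The heterozygous difference from wild type, the contrast on which Rimklb was not chosen, was 0.14 (SE 0.111, 95% interval -0.09 to 0.38) and did not pass (limma adjusted p = 0.994). In that contrast limma called 0% of all genes, with 381 at an unadjusted p under 0.05. A gene counted as tested if its signal exceeded 5.31 in at least 5 arrays. This value was the median over the 19938 named genes and all arrays. Rimklb exceeded it in 8 arrays: the 5 null arrays, wild-type array 4 and heterozygous arrays 1 and 2. It thus passed only through the null animals for which it was chosen. In the limma fit without the filter its heterozygous difference from wild type had an adjusted p of 0.973.

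**Figure D1:**
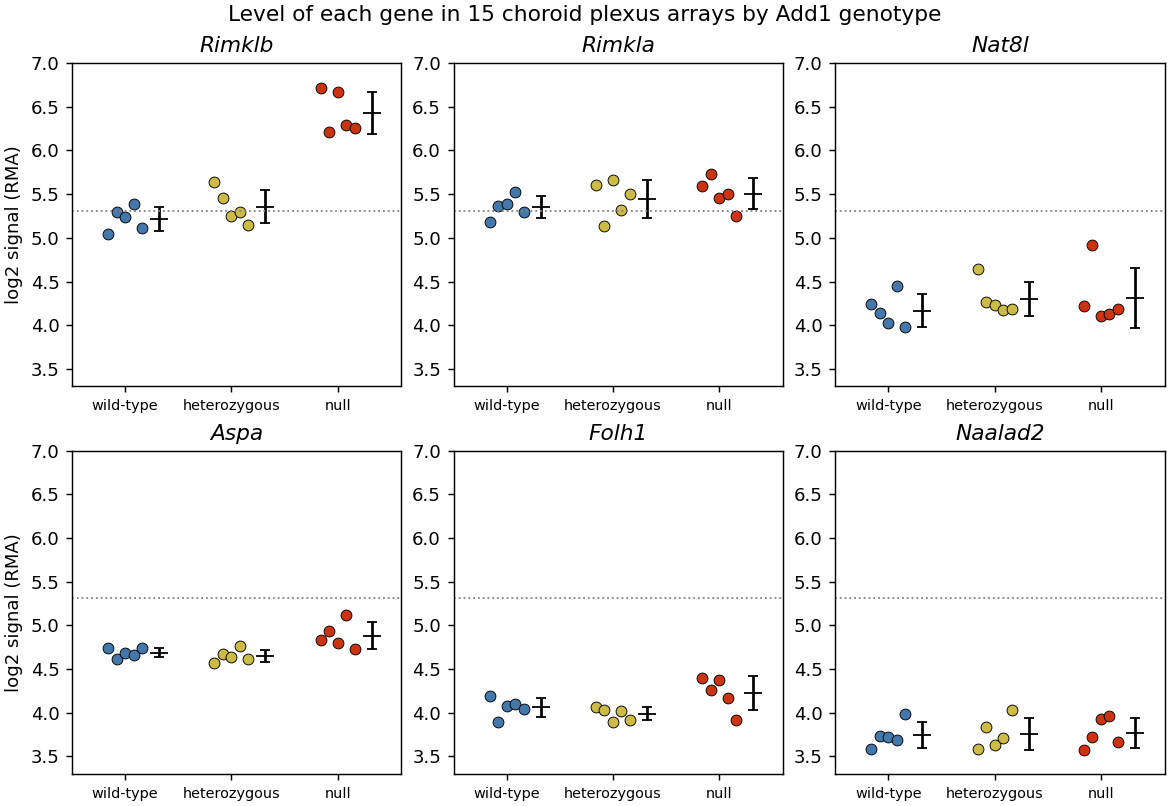
Log2 signal of the 6 genes (vertical axis) in each array, grouped by Add1 genotype; points are animals, bars beside them the mean ± SD (n = 5), and the dotted line is the filter value of 5.31. Only in the panel of Rimklb do the null arrays (6.21 to 6.71) lie apart from the wild-type and heterozygous ones (5.04 to 5.64).

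Rimklb was chosen for its null level, and every null array lay above all arrays of the other genotypes. Leaving out arrays could thus only return a rise, and the following values only describe its size. The 2 null arrays with Xist signal averaged 6.49 and the other 3 null arrays 6.39, so that the latter stood 1.18 above wild type. Leaving out any single array gave a difference from wild type between 1.14 and 1.27. The samples also bear a label number that no source explains. Null array 2 and heterozygous array 5 share it (460), and their Rimklb signals were 6.21 and 5.15, a difference of 1.06. Null arrays mostly bore higher label numbers than the other genotypes, and none shared its number with a wild-type array. Label number and genotype are thus partly confounded, and a fit with both cannot cleanly separate them. When the label number entered the fit as a linear term, null exceeded wild type by 1.48, a value that rests on this overlap. In bulk tissue more cells of a type and more RNA per cell cannot be told apart.

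Some markers of other cell types also differed between null and wild-type animals. Over 8 astrocyte markers the array means ran from 0.09 to 0.77 above the wild-type mean in null animals, against -0.09 to 0.18 in wild-type animals, and 1 of the 8 rose, Fgfr3. Of the 4 endothelial markers tested 2 rose, Cdh5 and Kdr, and of 5 stromal markers 2, Dcn and Pdgfra. Of 4 ependymal markers tested Ccdc153 rose by 0.53 (limma adjusted p = 0.0107) and Dynlrb2 fell by 0.31 (adjusted p = 0.0446), and the array means of that list ran from -0.01 to 0.34 in null animals. The null arrays ranged from -0.43 to 0.47 for oligodendrocyte and from -0.12 to 0.49 for macrophage markers, with 0 of 7 and 0 of 2 called by limma, and 1 and 0 at an unadjusted p under 0.05. Choroid plexus epithelial markers stayed within -0.06 and 0.01 of the wild-type mean in the null arrays; 1 of 10 rose, the water channel Aqp1, and 2 fell, the potassium channel genes Kcnj13 and Kcne2. Markers of neurons, the cells in which the pathway is best known, were -0.60 to 0.11 from wild type in null animals; 6 of the 12 had a mean under the filter value and limma called 0 of the 7 tested, with 0 at an unadjusted p under 0.05. At an unadjusted p under 0.05 there were 4 astrocyte, 2 endothelial, 2 stromal, 2 ependymal and 3 epithelial markers in the limma fit. Of all genes tested, limma called 7.72% in this contrast, and 24% had an unadjusted p under 0.05. Nothing is read from the counts of these short lists. The part of these cell types in the level of Rimklb was not tested.

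**Figure D2:**
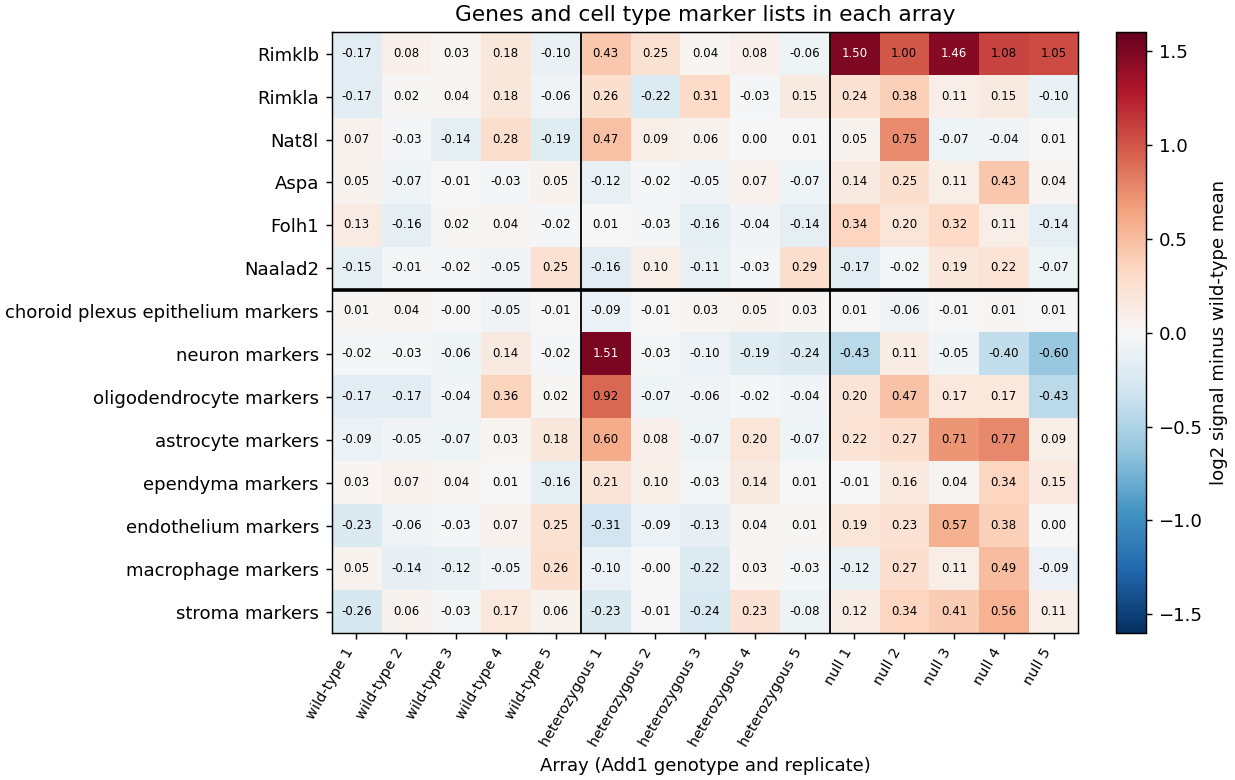
Each cell gives the log2 signal minus the wild-type mean, for the 6 genes (upper rows) and for the mean of each cell type marker list (lower rows), in the 15 arrays ordered by genotype. Rimklb is raised in all 5 null arrays, between 1.0 and 1.5, while the neuron and oligodendrocyte lists peak in heterozygous array 1 at 1.51 and 0.92.

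For Rimkla, the paralogous ligase, no difference between genotypes passed the test. Its signal was 5.18, 5.37, 5.39, 5.53 and 5.29 in wild-type arrays 1 to 5, with 5.61, 5.13, 5.66, 5.32 and 5.5 in heterozygous and 5.59, 5.73, 5.46, 5.5 and 5.25 in null arrays. All 3 genotypes overlapped, and the ordering of the means (5.35 ± 0.129, 5.44 ± 0.219 and 5.51 ± 0.177 in wild-type, heterozygous and null; SD, n = 5 each) did not separate neighbours beyond their spread. The difference of null from wild type was 0.15 (95% interval -0.06 to 0.37; limma adjusted p = 0.381), and that of null from heterozygous 0.06 (-0.15 to 0.28; adjusted p = 0.741). The heterozygous difference from wild type was 0.09 (-0.12 to 0.31; adjusted p = 0.994). A probe set is not set against another in level, and whether probes of these related genes share sequence was not tested.

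Nat8l, which makes N-acetylaspartate, stayed under the filter value in all 15 arrays. It read 4.24, 4.14, 4.03, 4.45 and 3.98 in wild-type, 4.64, 4.26, 4.23, 4.17 and 4.18 in heterozygous, and 4.22, 4.92, 4.10, 4.13 and 4.18 in null arrays. A single array stood above the rest in each mutant group: heterozygous array 1 at 4.64 and null array 2 at 4.92. In heterozygous array 1 the neuron markers were 1.51 above the wild-type mean. In null array 2 they were 0.11 above it, and the oligodendrocyte markers 0.47, where wild-type array 4 stood 0.14 and 0.36 above. Whether tissue from beside the choroid plexus raised Nat8l in heterozygous array 1 or null array 2 was not tested. For genes under the filter value, adjusted p-values come from a fit without the filter over all 19938 genes, which called 2.62% of them between null and wild type and 2.51% between null and heterozygous. The difference of null from wild type was 0.14 in this gene (95% interval -0.15 to 0.43; adjusted p = 0.721), and -0.01 without null array 2. The heterozygous difference from wild type was 0.13 (-0.16 to 0.42; adjusted p = 0.974), and 0.04 without heterozygous array 1.

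Of the hydrolases, Aspa and Folh1 had their highest arrays in null animals without passing the test, and the genotypes of Naalad2 overlapped almost completely. Aspa read 4.74, 4.62, 4.68, 4.66 and 4.74 in wild-type, 4.57, 4.67, 4.64, 4.76 and 4.62 in heterozygous, and 4.83, 4.94, 4.80, 5.12 and 4.73 in null arrays. Of the null arrays 4 lay above every wild-type and heterozygous array, and null array 5 overlapped both groups. The means were 4.69 ± 0.0522, 4.65 ± 0.0705 and 4.88 ± 0.152 (SD, n = 5 each). The difference was 0.20 from wild type (95% interval 0.05 to 0.34; adjusted p = 0.142) and 0.23 from heterozygous (0.09 to 0.37; adjusted p = 0.0741). Without null array 5, which carried Xist signal, the latter passed (0.27, limma adjusted p = 0.0423). No other alternative fit called it, nor did the fit without both null arrays with Xist signal. Null array 4, the highest for Aspa, also had the highest mean of the astrocyte (0.77), stromal (0.56) and macrophage (0.49) markers relative to wild type, and oligodendrocyte markers stood 0.17 above wild type there; their part in the level of Aspa was not tested.

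Folh1, the peptidase best known for cleaving N-acetylaspartylglutamate, read 4.19, 3.90, 4.08, 4.10 and 4.04 in wild-type, 4.07, 4.03, 3.90, 4.02 and 3.92 in heterozygous, and 4.40, 4.26, 4.38, 4.17 and 3.92 in null arrays. The first 4 null arrays lay above all heterozygous ones and 3 of these above all wild-type ones, while null array 5 was among the lowest of all. The difference was 0.16 from wild type (95% interval -0.01 to 0.34, limma adjusted p = 0.360) and 0.24 from heterozygous (0.07 to 0.41, adjusted p = 0.127). Without null array 5, which carried Xist signal, the latter passed (0.31, adjusted p = 0.0233). Here too no other alternative fit called it, nor did the fit without both null arrays with Xist signal.

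Naalad2, a related peptidase that also cleaves beta-citrylglutamate, had a range of 3.59 to 3.99 in wild-type (median 3.72), 3.58 to 4.03 in heterozygous (median 3.71) and 3.57 to 3.96 in null arrays (median 3.72). The ranges almost coincide. Its difference of null from wild type was 0.03 (95% interval -0.18 to 0.23; adjusted p = 0.946). The heterozygous differences from wild type of the hydrolases were -0.04 for Aspa (-0.18 to 0.11), -0.07 for Folh1 (-0.25 to 0.10) and 0.01 for Naalad2 (-0.19 to 0.22), with adjusted p-values of 0.987, 0.976 and 0.995.

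**Figure D3:**
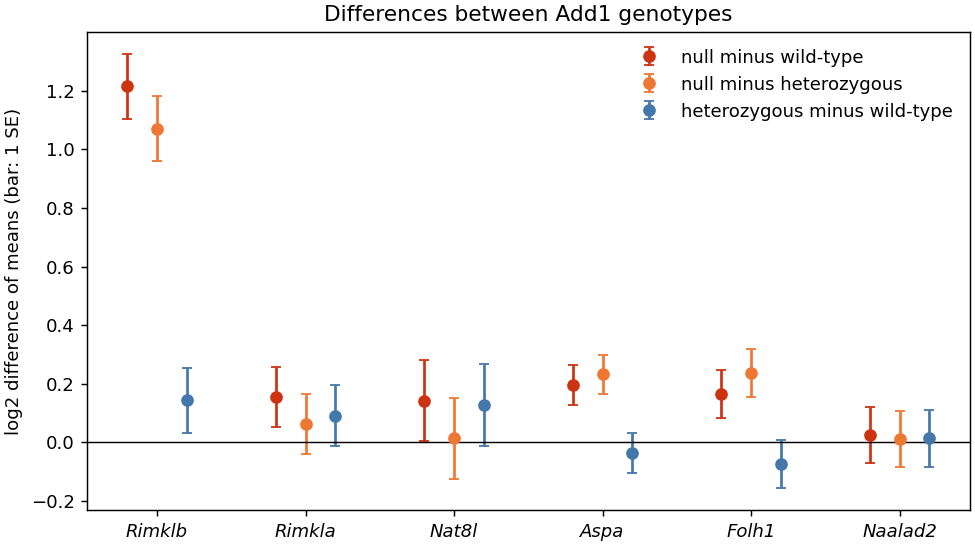
Log2 difference of means between genotypes for each gene; bars are 1 SE from the limma fit. For Rimklb both differences with null animals are near or above 1.07, whereas for the other 5 genes no difference exceeds 0.24.

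Counted together, 0 of the 5 genes other than Rimklb were called by limma between null and wild type, or between null and heterozygous, in the fit without the filter. At an unadjusted p under 0.05 there was 1, Aspa, in the former contrast and 2, Aspa and Folh1, in the latter, where 15.2% and 18.1% of all genes in that fit had such a p. Their median difference was 0.15 from wild type, beside 0.01 over all genes, and null arrays lay apart from the wild-type or the heterozygous ones in 0 of the 5, where arrays did not overlap for 5.95% and 5.76% of the genes tested. Those shares are over genes that passed the filter, as only Rimkla of the 5 did, and nothing is read from the count. Between heterozygous and wild-type animals 0 of 6 were called, and 0 had an unadjusted p under 0.05.

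Around these genes, a list of 48 further genes (the 5 others included) that supply or use their substrates was described; 45 had a probe set and 33 were tested. In null against wild type 3 rose and 3 fell, 18.2% of those tested, where 4.17% of all genes tested rose and 3.54% fell, with a median difference of 0.00, beside 0.01 over all genes tested. The list was drawn up with earlier results of these arrays known, and nothing particular to it is read from this share. Without wild-type array 1 or null array 1 the count was 2 in each case, without null array 3 it was 3, and without both null arrays with Xist signal it was 1. With median centring of the arrays, which turned the split of all called genes from 422 higher and 358 lower into 261 higher and 557 lower, 0 genes of the list rose and 6 fell. Got1, Dlat and Mdh1 were still called lower there, Got2, Mdh2 and Pdhb were called lower as well (-0.24, -0.23 and -0.26; limma adjusted p = 0.0345, 0.0317 and 0.0428), and the calls of Slc17a5, Slc1a5 and Glud1 were lost (0.22, 0.22 and 0.18).

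The fall in Got1, the cytosolic aspartate aminotransferase that makes and uses aspartate, was the largest called difference of the list. Its signal was 10.58, 10.54, 10.46, 10.33 and 10.34 in wild-type arrays, 10.50, 10.36, 10.50, 10.50 and 10.35 in heterozygous arrays, and 9.84, 10.11, 10.10, 10.09 and 9.93 in null arrays. All null arrays lay below all others. The log2 difference was -0.44 from wild type (SE 0.0696, adjusted p = 0.00171) and -0.43 from heterozygous (SE 0.0696, adjusted p = 0.00242), and each call held whichever single array was left out. With the label number, which is partly confounded with genotype, as a covariate the adjusted p was 0.0602 (-0.39) and 0.0642 (-0.38). Mdh1, the cytosolic malate dehydrogenase that works with Got1 in the malate-aspartate shuttle, fell by 0.21 (adjusted p = 0.0393), but 8 of the 15 fits with 1 array fewer did not call it (-0.21 to -0.17). Their mitochondrial partners Got2 (-0.20, adjusted p = 0.0825) and Mdh2 (-0.19, adjusted p = 0.0896) and the aspartate-glutamate carriers Slc25a12 (0.20, adjusted p = 0.0734) and Slc25a13 (0.05, adjusted p = 0.645) did not pass.

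Among transporters, Slc17a5, the lysosomal sialin that has also been tied to vesicular transport of N-acetylaspartylglutamate, rose from 7.74 ± 0.0861 to 8.0 ± 0.0727 (SD, n = 5 each), with no overlap between wild-type (7.62 to 7.82) and null arrays (7.87 to 8.05). The difference was 0.26 (SE 0.0689, limma adjusted p = 0.0301), and it did not pass when null array 1 or 3, or wild-type array 1 or 5, was left out (0.23 to 0.25). Slc1a5, a neutral amino acid exchanger, rose by 0.26 (adjusted p = 0.0418), which 9 of the 15 fits with 1 array fewer did not call (0.22 to 0.27). The uptake transporters Slc13a3, for N-acetylaspartate and other dicarboxylates, and Slc15a2, for small peptides, differed by -0.01 (SE 0.371) and 0.03 (SE 0.0775) between null and wild type (limma adjusted p = 0.987 and 0.832). Slc13a3 varied widely between arrays (SD 0.929 in wild-type animals), so a difference there could have gone unseen. Grm3, the receptor, stayed near 4.3 in wild-type and null animals, below the filter value.

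For the other substrates, Dlat, the acetyltransferase subunit of pyruvate dehydrogenase, fell by 0.31 on the log2 scale (SE 0.0728, adjusted p = 0.0157), a call lost without wild-type array 2 (-0.27, adjusted p = 0.0501). Glud1, glutamate dehydrogenase, rose by 0.22 (SE 0.0536, adjusted p = 0.0202), with null arrays at 9.29 to 9.42 above all others (8.98 to 9.28), and lost its call without wild-type array 1 or null array 1 (0.18 and 0.20). None of the 5 citrate genes tested, which carry the partner substrate of Rimklb, and none of the 4 tested genes that use aspartate was called by limma, with 3 and 0 at an unadjusted p under 0.05, where 24% of all genes tested had such a p; nothing is read from these counts. The calls of Slc17a5, Slc1a5, Mdh1, Dlat and Glud1, but not that of Got1, were lost without both null arrays with Xist signal (0.24, 0.27, -0.18, -0.25 and 0.20).

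Between null and heterozygous animals 1 gene of the list rose and 3 fell, 12.1% of those tested, where 4.28% of all genes tested rose and 3.54% fell. Beside Got1, the mitochondrial glutamate carrier Slc25a22 fell by 0.35 (SE 0.0735, adjusted p = 0.0104), with null arrays at 6.03 to 6.21 below the heterozygous ones at 6.29 to 6.78; its difference from wild type was -0.15 (adjusted p = 0.210). With the label number, which is partly confounded with genotype, as a covariate the difference from heterozygous did not pass (-0.33, adjusted p = 0.124). Dlat fell by 0.25 (adjusted p = 0.0434) and Glul, glutamine synthetase, rose by 0.27 (adjusted p = 0.0448), but 11 and 12 of the 15 fits with 1 array fewer did not call them (-0.27 to -0.23 for Dlat, 0.19 to 0.29 for Glul). The count of 4 became 8 without null array 2 and 2 on leaving out heterozygous array 2, 3 or 4, null array 1 or 3, or wild-type array 3 or 5. With median centring 0 rose and 2 fell, Got1 and Slc25a22. Between heterozygous and wild-type animals limma called 0 of the 33, with 3 at an unadjusted p under 0.05.

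**Figure D4:**
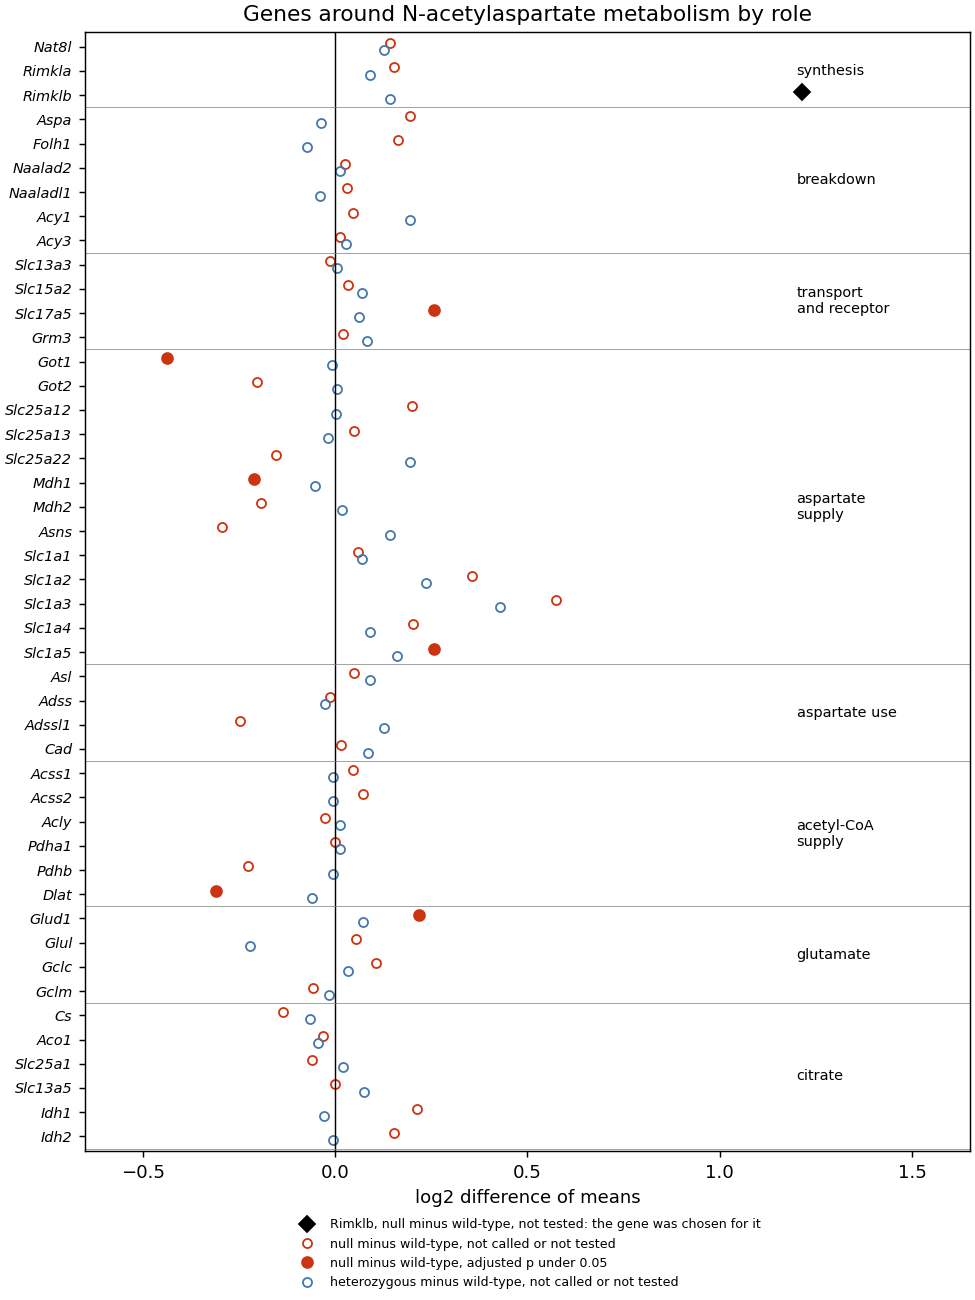
Log2 differences from wild type of null (red) and heterozygous animals (blue) for genes grouped by role; filled points passed limma at an adjusted p under 0.05, open ones did not or were not tested, and the black diamond is Rimklb in null animals, shown without a test. Rimklb at 1.21 lies far to the right of the rest, and Got1 at -0.44 is the lowest.

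The genes whose pattern over the 15 arrays was most like that of Rimklb were Rlbp1, the retinaldehyde-binding protein (Pearson r = 0.938), the oncostatin M receptor Osmr (0.937), the secreted protease inhibitor Wfikkn2 (0.932), the phosphate transporter Slc20a2 (0.931), the membrane protein Lhfpl2 (0.930) and the ubiquitin ligase adaptor Wsb1 (0.929). The genotypes fall apart in Rimklb, so these values mainly reflect the step between null and the other animals. Over the 10 wild-type and heterozygous arrays alone the same genes had r between -0.0014 (Wfikkn2) and 0.597 (Wsb1).

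With the genotype means subtracted, the closest were the imprinted RNA Meg3 (r = 0.885 over 15 arrays), the synaptotagmin Syt11 (0.884), Lrwd1 (0.825), Ggt7 (0.824), the opioid precursor Penk (0.806), the sodium leak channel subunit Unc80 (0.803), the adhesion protein Flrt1 (0.800) and Cyp2d22 (0.791). Dropping heterozygous array 1 gave values between 0.751 (Unc80) and 0.857 (Meg3). That array stayed in the heterozygous mean that was subtracted, so these values are not free of it. Null arrays 1 and 3, the highest in Rimklb, were also the highest of the null group in Meg3. These correlations are a description of arrays that share genotype and tissue composition. For Rimkla the closest over all arrays were R3hdm4 (0.816), Tbc1d20 (0.768), Lancl1 (0.763), Ring1 (0.755), Card19 (0.753) and Ntn1 (0.752). These short lists of the related ligases share no name. Nothing is read from that, since the list of Rimklb over all arrays follows its step in null animals.

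**Figure D5:**
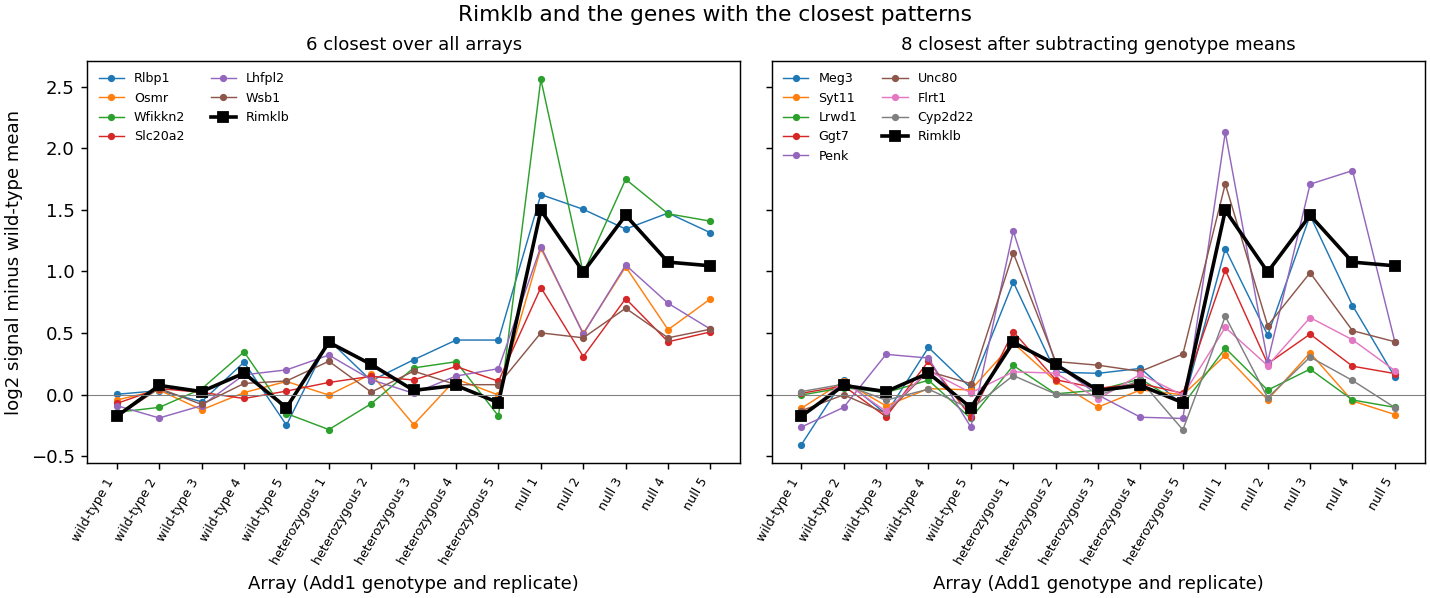
Log2 signal minus the wild-type mean in each array for Rimklb (black squares) and the genes of closest pattern, over all arrays (left) and after subtracting genotype means (right). On the left all genes step up in the null arrays; on the right several also peak with Rimklb in heterozygous array 1 and null arrays 1 and 3.

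None of the genes nearest to Rimklb on its chromosome passed the test between null and wild type. In the order of the GRCm38.p6 gene table, used only for order, the nearest with a probe set were Klrg1, Phc1 and 1700063H04Rik on one side and Mfap5, Apobec1 and Gdf3 on the other. Their differences of null from wild type ran from -0.37 in Apobec1 (adjusted p = 0.0697) to 0.17 in 1700063H04Rik (adjusted p = 0.368, without the filter), and limma called 0 of the 6 with or without the filter, with 2 at an unadjusted p under 0.05, Phc1 and Apobec1.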

How the data were processed

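RNA of 15 choroid plexus samples was measured on single-colour arrays. The authors deposited 1 log2 signal per probe set and array; they were made with RMA, which corrects background, normalizes quantiles between arrays and summarises probes, in Affymetrix Expression Console 1.1, per the submitters' processing notes. The log base was read from the values (1.57 to 13.89; array medians 4.78 to 4.88), and no genome build is named in the sources used here. Of 35556 probe sets the platform annotation, which can be old, gave 21789 a single symbol and 1621 several; 12146 were not listed. Symbols were updated through the GRCm38.p6 gene table (21698 matched), and the highest-mean probe set was kept for each of 19938 genes.

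Genes above 5.31 in at least 5 arrays (10109) entered 1 linear model over all 15 arrays in limma 3.58.1 (R 4.3.3), with 3 genotype means, 12 residual degrees of freedom and no covariate; genes with an adjusted p (Benjamini-Hochberg) under 0.05 were called. The procedure was tested on simulated data. The number of arrays limits the precision. The members and lists were chosen with earlier results of these data known. Named genes were the members, called genes of the substrate list, genes of highest correlation and the nearest neighbours with a probe set. Some genes of the substrate and marker lists are not reported here. Alternatives were no or a stricter filter, other scalings, the mean over probe sets, fits to 2 genotypes, the replicate number as a block, the label number as covariate or random block, array weights and leaving out arrays. Same-numbered arrays of different genotypes had deviations correlating between -0.254 and 0.238 in 15 pairs, 4 of them over 0.1. These values gave no sign that the numbers pair animals, but cannot exclude it.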

Additional observations from a re-analysis of the deposited data

Results flagged for a closer look

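In Nat8l a single array stood far from the other 4 of its group in 2 of the 21 groups of 5 arrays examined (Add1 and the 6 genes in 3 genotypes), where chance gives about 1 in 20. Heterozygous array 1 read 4.64, with the next array at 4.26, and this gap was 0.809 of the range of the group. Null array 2 read 4.92, with the next at 4.22, a gap of 0.854 of the range. Heterozygous array 1 stood 0.92 above the wild-type mean in oligodendrocyte markers and 1.51 in neuron markers. Null array 2 stood 0.47 and 0.11 above it, where wild-type array 4 stood 0.36 and 0.14 above. The part of these cell types in the level of Nat8l was not tested.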

How the results depend on the processing

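Of 18 differences between genotypes (6 genes in 3 contrasts), 14 kept their verdict in all fits run. Rimklb in null animals was 1.48 above wild type and 1.32 above heterozygous with the label number as covariate; single left-out arrays gave 1.14 to 1.27 and 1.0 to 1.14. Null against heterozygous ranged from 0.17 to 0.27 in Aspa and 0.19 to 0.31 in Folh1 over single left-out arrays, the highest without null array 5. Rimklb failed the stricter filter and was not fitted there, nor were the 4 genes below the filter.

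Over all genes the 780 called between null and wild type became 458 in a fit to these genotypes alone, 259 with the label number, 1315 with array weights, 401 without the 2 null arrays with Xist signal and 392 to 1420 over single left-out arrays (392, 438 and 449 without wild-type array 1, 2 and 3, 401 and 440 without null array 1 and 3, 1420 without null array 2). The 791 between null and heterozygous became 500 without the filter and 342, 199, 1296 and 332 under the same alternatives, 297 also without heterozygous array 1 (added after seeing the data), and 356 to 1812 over single left-out arrays (456, 520 and 413 without heterozygous array 1, 2 and 3, 356, 1812 and 401 without null array 1, 2 and 3). Between heterozygous and wild type the 0 became 1, the gene model Gm5771, with array weights, without both null arrays with Xist signal or without wild-type array 4 (0 to 1 over single left-out arrays).

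The 6 genes of the substrate list called between null and wild type became 3 without the filter, 3 in the fit to these genotypes, 0 with the label number, 1 without the arrays with Xist signal, 2 also without heterozygous array 1, and 2 to 9 over single left-out arrays. The 4 between null and heterozygous became 2 without the filter, 2 with median centring, 2 in the fit to these genotypes, 0 with the label number, 8 with array weights, 2 without the arrays with Xist signal and 2 to 8 over single left-out arrays. The cause of these changes was not tested. Label number and genotype are partly confounded, so the fits with the label number as covariate do not cleanly separate them.

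The replicate numbers gave no sign of pairing the animals, which correlations cannot exclude: 1 of the 15 arrays correlated best with an array of its own number. With the replicate number as a block the difference of Rimklb from wild type was 1.21, and 520 and 546 genes were called in the contrasts with null animals.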
